A study of Mus musculus with 23 samples.

Results

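Expression of 8 genes of hepatic glucose metabolism was followed in the livers of 23 male mice. The genes were G6pc, Pck1, Fbp1, Pklr, Ppargc1a, Igfbp1, Slc2a2 and Tat, out of 18193 genes with a probe set of their own on the array. All probe sets that the platform annotation pairs with one of these genes alone were taken, which gave 16 of the 45037 probe sets tested. Each gene was represented by its probe set with the highest mean over the 23 arrays. The genes were chosen by name and function and not by a rule on their values here, but with earlier results of these data known.

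Every animal was a hemizygous FVB/N-SULT1A1/2 mouse, which carries human SULT1A1 and SULT1A2, and every animal has a labelled age of 5 weeks. What drives the 2 sulfotransferase transgenes is not given here by the labels. Treated animals were given oral doses of 26 mg/kg body mass of 1-MIM-OH (1-methoxy-3-indolylmethyl alcohol, a breakdown product of a cabbage-family glucosinolate) on 3 occasions a week. Vehicle animals, the controls, received the carrier glyceryl trioctanoate alone. The 21 d groups had 10 treatments (5 treated and 6 vehicle livers) and the 90 d groups had 40 (6 treated and 6 vehicle livers), with livers taken 24 h after the last one. The array of a further treated 21 d animal was set aside by the submitters for hybridisation artefacts and was not analysed here. At 3 occasions a week, 40 treatments outlast 5 weeks, so the labelled age cannot be the age at death of the 90 d animals. The labels used here give neither feeding state nor hour of death of single animals.

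The liver keeps blood glucose steady between meals by releasing glucose from glycogen and by making it anew from lactate, glycerol and amino acids. Glucagon (through cAMP and the factor CREB) and glucocorticoids raise transcription of the genes of glucose production, and insulin lowers it, largely by moving the forkhead factor FOXO1 out of the nucleus. Pck1 encodes phosphoenolpyruvate carboxykinase, Fbp1 fructose-1,6-bisphosphatase and G6pc the catalytic subunit of glucose-6-phosphatase, which act at successive steps of glucose production. Tat encodes tyrosine aminotransferase, an enzyme of amino acid breakdown that responds to glucocorticoids. Slc2a2 encodes GLUT2, the glucose transporter of the hepatocyte membrane. Ppargc1a encodes PGC-1alpha, a coactivator induced by fasting, and Igfbp1 a secreted binding protein of insulin-like growth factors whose transcription insulin represses. Pklr encodes the liver and red cell pyruvate kinase, a glycolytic enzyme that is raised by feeding.

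RefSeq promoter windows (build GRCm38.p6, 250 bases before to 50 after the start) were held for all 8 genes, 9 windows in all because Pklr has 2. Of these, 4 are shown because they hold a match to a forkhead or cAMP response motif, the elements through which insulin and glucagon act. Capitals mark every match, on either strand, to the motifs named after the sequences. G6pc lies at chr11:101367466-101367765 (plus strand), Pck1 at chr2:173152823-173153122 (plus strand), Igfbp1 at chr11:7197537-7197836 (plus strand) and Ppargc1a at chr5:51567676-51567975 (minus strand).
G6pc: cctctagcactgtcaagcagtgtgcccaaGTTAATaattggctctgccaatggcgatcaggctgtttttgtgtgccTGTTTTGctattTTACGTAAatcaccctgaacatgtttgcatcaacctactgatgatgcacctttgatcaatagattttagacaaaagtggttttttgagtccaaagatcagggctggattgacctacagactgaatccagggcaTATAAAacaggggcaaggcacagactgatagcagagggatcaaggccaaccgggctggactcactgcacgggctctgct
Pck1: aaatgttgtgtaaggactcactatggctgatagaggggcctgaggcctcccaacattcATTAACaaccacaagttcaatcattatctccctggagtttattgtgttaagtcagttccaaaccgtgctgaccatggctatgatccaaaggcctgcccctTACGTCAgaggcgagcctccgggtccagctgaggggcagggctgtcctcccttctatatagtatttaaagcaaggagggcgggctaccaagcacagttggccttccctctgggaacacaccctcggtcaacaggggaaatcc
Igfbp1: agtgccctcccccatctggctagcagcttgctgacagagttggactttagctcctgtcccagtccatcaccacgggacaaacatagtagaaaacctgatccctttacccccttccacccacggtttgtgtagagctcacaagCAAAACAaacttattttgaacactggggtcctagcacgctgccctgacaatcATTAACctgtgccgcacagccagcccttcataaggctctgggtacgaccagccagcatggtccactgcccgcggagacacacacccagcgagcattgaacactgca
Ppargc1a: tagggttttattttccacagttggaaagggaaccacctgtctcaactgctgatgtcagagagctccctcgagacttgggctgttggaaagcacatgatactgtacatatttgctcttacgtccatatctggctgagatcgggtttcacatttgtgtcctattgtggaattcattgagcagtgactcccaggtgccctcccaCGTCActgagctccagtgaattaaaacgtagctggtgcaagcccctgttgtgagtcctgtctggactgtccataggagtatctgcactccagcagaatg

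The forkhead (insulin response) motif CAAAACA was found in the G6pc window, on the reverse strand from 174 bases before the start, and in the Igfbp1 window, 108 bases before it. It occurs in 6.28% of all 32851 windows. The cAMP response variant TACGTCA begins 92 bases before the start of Pck1 and occurs in 1.27% of windows. The shorter cAMP response core TGACG lies within that element on the other strand, and on the reverse strand 49 bases before the start of Ppargc1a; 20.8% of windows hold it. HNF1 core letters (GTTAAT, 7.1% of windows) were present in G6pc, Pck1 and Igfbp1, and TATAAA (13.6%) in G6pc and in 1 Pklr window. No match to GTAAACA (3.65% of windows), TGACGTC (3.21%), AGAACA (19%) or CACGTG (7.15%) was present in the 9 windows. A match says only that these letters stand in the window.

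Values are log2 signals that the authors deposited, and a difference of 1 is a doubling. Array medians lay between 5.53 and 5.61, and the correlation of arrays within a group was at least 0.984. The 8 measured of 10 listed hepatocyte markers averaged 14.55 to 14.71 on every array. Of hepatocytes and the 7 other cell types looked at, 0 markers passed at either time. Over all genes 1.17% passed at 21 d and 0.748% at 90 d, so 0 in lists this short says little about cell composition. Some other lists varied more from liver to liver. Within treated 21 d livers the list mean ran from 8.16 to 11.06 for Kupffer cells and from 5.48 to 8.56 for neutrophils. Cdkn1a, a p53 target, was 6.41 to 7.27 in vehicle and 8.95 to 11.79 in treated livers. The Gapdh control probe sets read the 3' and the 5' end of that transcript, and their difference (3' minus 5'), which grows as RNA or labelled product shortens, was 0.09 to 0.74 in the 12 vehicle livers. In treated 21 d replicates 1 to 5 it was 1.18, 0.14, 1.02, 1.23 and 1.45, and at 90 d it was 0.14 to 0.63 in 5 treated livers and 1.24 in replicate 6. Its mean at 21 d was higher in treated than in vehicle livers by 0.67 (2-sided exact permutation test, p = 0.0216, n = 5 and 6).

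Treated 21 d replicate 2 stood apart from the other 4 livers of its group. Its G6pc signal was 12.49 against 10.10 to 10.95, and its Igfbp1 signal was 11.34 against 7.77 to 9.04. Dbp, a transcription factor whose liver mRNA cycles strongly over the day, was 7.62 there and 11.13 to 13.24 in the others. Saa1, an acute phase gene, was 14.83 against 10.75 to 11.87. Of the 8 genes, G6pc, Fbp1, Ppargc1a, Igfbp1 and Slc2a2 were higher there than in each of the other 4 livers, Pklr (9.03 against 9.22 to 9.68) was lower, and Pck1 and Tat lay within their range. Results that rest on this liver are given with and without it.

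**Figure D1:**
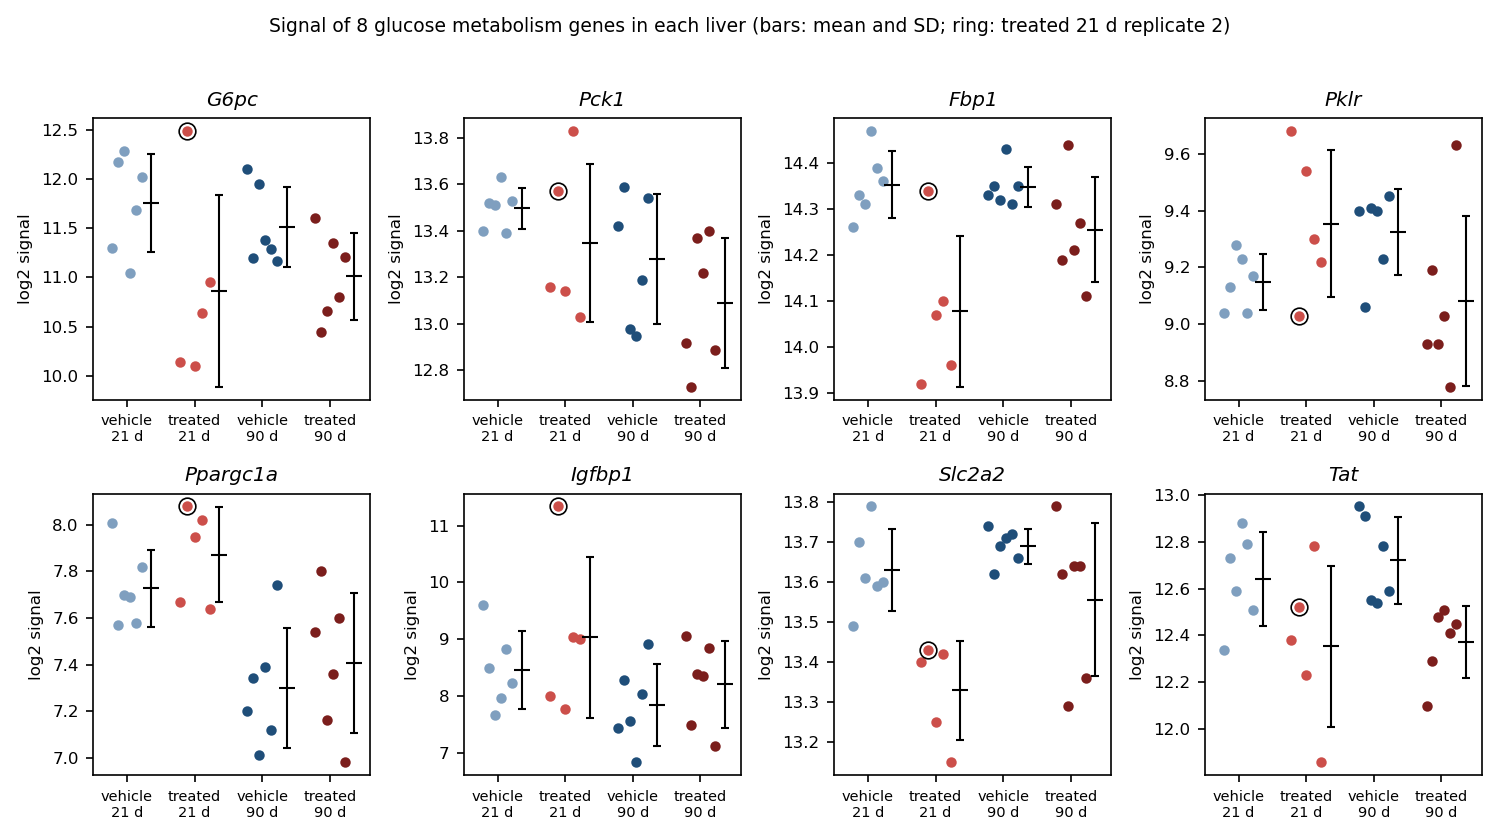
Log2 signal (vertical axis) of each gene in each of the 23 livers by group (horizontal axis), with group mean and SD as bars and treated 21 d replicate 2 ringed. Slc2a2 at 21 d and Tat at 90 d are the gene and time pairs in which treated and vehicle livers do not overlap.

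The first comparison asked whether 10 treatments changed these genes. None of the 8 genes, and none of their 16 probe sets, passed at 21 d (limma, adjusted p under 0.05 over all probe sets; 0 of 8), where 0.957% of all probe sets passed. At an unadjusted p under 0.05 there were 4 of 8 (Fbp1, Slc2a2, G6pc and Tat, all with lower means in treated livers), against 15.8% of all probe sets. The median log2 fold change of the 8 genes was -0.21, beside -0.02 over all genes. In whole liver, fewer cells of a type and less RNA per cell cannot be told apart.

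After 40 treatments, again 0 of 8 genes and 0 of 16 probe sets passed (limma), where 0.502% of probe sets did. Tat alone had an unadjusted p under 0.05, against 10.2% of all probe sets. The median log2 fold change was -0.16 for the 8 genes and 0.02 for all genes, and 6 of the 8 had a lower mean in treated livers. The effects at 90 d and 21 d did not pass a test of their difference for any of the 8 genes (limma interaction), and 0% of all probe sets passed it. At an unadjusted p under 0.05 there was 1 of 8, against 9.59% of all probe sets.

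Among the enzymes of glucose production, each read by its brightest probe set, G6pc had the largest mean difference at 21 d. Its signals in treated 21 d replicates 1 to 5 were 10.14, 12.49, 10.10, 10.64 and 10.95, and the vehicle 21 d livers had a lowest value of 11.05, a median of 11.86 and a highest of 12.29. The other 4 treated livers lay below every vehicle liver, whereas replicate 2 was above all of them. The mean was 1.85-fold lower in treated livers (log2 fold change -0.89 ± 0.33 SE, 95% interval -1.57 to -0.21, limma adjusted p = 0.176; exact permutation p = 0.0866). Without replicate 2 the log2 fold change was -1.30 and passed (adjusted p = 0.00808), in a fit where 5.03% of all probe sets passed. The 4 treated livers in that fit all had a Gapdh difference over 0.9, and no vehicle liver did. Treatment and RNA shortening therefore cannot be told apart there. Adjusted for the Gapdh difference over all arrays, the log2 fold change of G6pc was -0.57 ± 0.41 (SE, limma adjusted p = 0.783). That fit takes a single slope for all groups. G6pc, however, ran with the Gapdh difference within vehicle livers and against it within treated livers (given below). The adjusted value therefore cannot tell how much of the difference goes with RNA shortening. With the 5 arrays left out whose Gapdh difference exceeded 0.9, replicate 2 is the only treated 21 d liver, assumed to vary like the other groups, and the log2 fold change was 0.74 (adjusted p = 0.559).

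At 90 d the G6pc signal was 10.45, 11.01 and 11.60 (lowest, median, highest) in treated and 11.17, 11.34 and 12.10 in vehicle livers. The groups overlapped, with 3 treated livers below all vehicle livers. Treatment gave a log2 fold change of -0.50 ± 0.31 (SE, 95% interval -1.15 to 0.15, limma adjusted p = 0.624). The order of the 4 group means was vehicle 21 d (11.75 ± 0.50 SD, n = 6), vehicle 90 d (11.52 ± 0.40, n = 6), treated 90 d (11.01 ± 0.44, n = 6) and treated 21 d (10.86 ± 0.98, n = 5). Neighbours in this order differed by no more than 1 SD of the larger spread, apart from vehicle and treated 90 d, whose difference of 0.50 did not pass.

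Fbp1 had the lowest adjusted p of the 8 genes at 21 d. Treated replicates 1 to 5 gave 13.92, 14.34, 14.07, 14.10 and 13.96, against a lowest, median and highest vehicle signal of 14.26, 14.35 and 14.47. Replicate 2 was the only treated liver inside the vehicle range. The mean was 1.21-fold lower (log2 fold change -0.28 ± 0.07 SE, limma adjusted p = 0.0531; exact permutation p = 0.00866), just short of the threshold. It passed without replicate 2 (-0.34, adjusted p = 0.00632, with 5.03% of all probe sets passing). It also passed where only probe sets with a mean of at least 6 were tested (adjusted p = 0.0307, with 813 probe sets passing). Fewer probe sets were tested there, so the share passing was larger than the 431 of 45037 of the main fit. Once adjusted for the Gapdh difference the log2 fold change of Fbp1 was -0.10 ± 0.06 (SE, adjusted p = 0.759).

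At 90 d Fbp1 ran from 14.11 to 14.44 in treated livers (median 14.24) and from 14.31 to 14.43 in vehicle livers (median 14.34). Treated and vehicle log2 means differed by -0.09 ± 0.07 (SE, adjusted p = 0.676 in limma). The vehicle livers of 21 d and 90 d had means of 14.35 ± 0.07 (SD, n = 6) and 14.35 ± 0.04 (SD, n = 6), with a difference whose 95% interval was -0.14 to 0.13. The treated 90 d mean was 14.26 ± 0.11 (SD, n = 6) and the treated 21 d mean 14.08 ± 0.16 (SD, n = 5).

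Pck1 signals overlapped between the groups at both times. Treated 21 d replicates 1 to 5 had 13.16, 13.57, 13.14, 13.83 and 13.03, and vehicle livers had 13.39, 13.52 and 13.63 (lowest, median, highest). Of the treated livers 3 were below and 1 was above all vehicle livers, so the SD was 0.34 in treated (n = 5) and 0.09 in vehicle livers (n = 6). The log2 fold change was -0.15 (95% interval -0.45 to 0.15, limma adjusted p = 0.686) at 21 d and -0.19 (95% interval -0.48 to 0.10, adjusted p = 0.693) at 90 d. At 90 d treated livers ran from 12.73 to 13.40 (median 13.07) and vehicle livers from 12.95 to 13.59 (median 13.31).

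The other 2 probe sets of Pck1 gave different sizes. The second brightest had -0.93 ± 0.37 (SE, adjusted p = 0.210 in limma) at 21 d and -0.38 (adjusted p = 0.764) at 90 d. Adding the Gapdh difference to the fit gave 0.14 (adjusted p = 0.958) at 21 d. The third, with a low mean signal of 3.84, had -0.18 and 0.06.

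Tat was the gene in which the groups separated at 90 d. Treated 90 d livers had a lowest signal of 12.10, a median of 12.43 and a highest of 12.51, and vehicle livers had 12.54, 12.69 and 12.95. All 6 treated livers were below all 6 vehicle livers, as was the case for 0.36% of all probe sets. In either direction 1.01% of all probe sets separated. The mean was 1.27-fold lower (log2 fold change -0.35 ± 0.12 SE, 95% interval -0.60 to -0.09). It did not pass (limma adjusted p = 0.278), and the exact permutation p was 0.00216, the smallest that 6 against 6 can give. The separation was by 0.03, and over the fits that left out 1 array the log2 fold change ran from -0.38 to -0.29.

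At 21 d Tat was 12.38, 12.52, 12.23, 12.78 and 11.86 in treated replicates 1 to 5, with vehicle signals of 12.34, 12.66 and 12.88 (lowest, median, highest). These groups overlapped, with 2 treated livers below all vehicle livers. Their log2 fold change of -0.29 ± 0.13 (SE) had a limma adjusted p of 0.274. The treated means at the 2 times (12.35 ± 0.34 SD, n = 5, and 12.37 ± 0.15 SD, n = 6) lay next to each other in the order, below vehicle 21 d (12.64 ± 0.20 SD, n = 6) and vehicle 90 d (12.72 ± 0.18 SD, n = 6).

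Slc2a2 was the gene in which the groups separated at 21 d. Treated replicates 1 to 5 gave 13.40, 13.43, 13.25, 13.42 and 13.15, and the vehicle livers 13.49, 13.61 and 13.79 (lowest, median, highest). All 5 treated livers were below all 6 vehicle livers, as was the case for 1.12% of all probe sets, a share that counts this direction alone. The mean was 1.23-fold lower (log2 fold change -0.30 ± 0.08 SE, limma adjusted p = 0.0634; exact permutation p = 0.00433). It passed without replicate 2 (-0.33, adjusted p = 0.0298, beside the same 5.03%), the highest of its group by 0.01. It also passed among probe sets with a mean of at least 6 (adjusted p = 0.0374), of which 813 passed, again a larger share. Adjusted for the Gapdh difference it was -0.20 ± 0.10 (SE, adjusted p = 0.583), and without the 5 arrays over 0.9 it was -0.20 (adjusted p = 0.630).

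At 90 d Slc2a2 was 13.29 to 13.79 in treated livers (median 13.63) and 13.62 to 13.74 in vehicle livers (median 13.70). Treated replicates 3 and 6, at 13.29 and 13.36, were below all vehicle livers and the other 4 were at or above 13.62. Their log2 means differed by -0.13 ± 0.08 (SE, limma adjusted p = 0.584). Those same replicates had the lowest Cdkn1a signals among the treated 90 d livers, 9.01 and 9.15 against 10.67 to 11.79. They also had the highest Saa1 signals of that group, 14.56 and 14.10 against 10.32 to 12.64. Their Gapdh differences were 0.21 and 1.24. What lies behind their lower Slc2a2 was not tested.

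Igfbp1 varied most of the 8 genes from liver to liver, with an SD within groups of 0.92 (19 residual degrees of freedom). Treated 21 d replicates 1 to 5 had 7.99, 11.34, 7.77, 9.04 and 9.01, and the vehicle livers 7.67, 8.36 and 9.60 (lowest, median, highest). Only replicate 2 was outside the vehicle range. The log2 fold change was 0.57 (95% interval -0.47 to 1.60, limma adjusted p = 0.646) with that liver and -0.01 without it. Adjusted for the Gapdh difference it was 1.78 ± 0.49 (SE, adjusted p = 0.183). Without the 5 arrays over 0.9 it was 2.88, a value in which replicate 2 alone stands for the treated group.

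At 90 d Igfbp1 was 7.11 to 9.05 in treated livers (median 8.37) and 6.83 to 8.91 in vehicle livers (median 7.79). The groups overlapped almost wholly, with a log2 fold change of 0.37 (95% interval -0.62 to 1.35, limma adjusted p = 0.847).

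Ppargc1a had overlapping groups at both times. Treated 21 d replicates 1 to 5 had 7.67, 8.08, 7.95, 8.02 and 7.64, and vehicle livers 7.57, 7.70 and 8.01 (lowest, median, highest). The log2 fold change was 0.14 (95% interval -0.14 to 0.42, limma adjusted p = 0.674) at 21 d and 0.11 (95% interval -0.16 to 0.37, adjusted p = 0.833) at 90 d. At 90 d treated livers ran from 6.98 to 7.80 and vehicle livers from 7.01 to 7.74. The 4 further probe sets had log2 fold changes from -0.02 to 0.23 at 21 d and from 0.10 to 0.21 at 90 d, with 0 passing.

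The larger contrast for Ppargc1a was between the 2 time points. Vehicle livers averaged 7.73 ± 0.17 (SD, n = 6) at 21 d and 7.30 ± 0.26 (SD, n = 6) at 90 d, a log2 fold change of -0.43 ± 0.13 (SE) in which 5 of 6 livers at 90 d were below all 6 at 21 d. It did not pass (limma, adjusted p = 0.679; 0 of 8 genes), and 0.00666% of all probe sets passed between these vehicle groups. At an unadjusted p under 0.05 there was 1 of 8 genes, against 5.96% of all probe sets. Treated livers gave -0.47 ± 0.14 (SE, adjusted p = 0.163) between the same times, also with 0 of 8 genes passing, beside 0.0755% of all probe sets. Between these treated groups 4 of 8 genes had an unadjusted p under 0.05, against 13.4% of all probe sets. The groups of the 2 times differ in days on the schedule, and with them in age at death, and in the number of treatments. These cannot be told apart here.

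Pklr, the glycolytic gene of the set, had a higher mean in treated livers at 21 d and a lower one at 90 d. Treated 21 d replicates 1 to 5 had 9.68, 9.03, 9.54, 9.30 and 9.22, and vehicle livers 9.04, 9.15 and 9.28 (lowest, median, highest). At 90 d treated livers had 8.78, 8.98 and 9.63 and vehicle livers 9.06, 9.40 and 9.45. Replicate 6, the one treated 90 d liver with a Gapdh difference over 0.9, had the value of 9.63, and the other 5 were at or below 9.19.

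The log2 fold change of Pklr was 0.21 ± 0.12 (SE, limma adjusted p = 0.450) at 21 d and -0.24 ± 0.12 (SE, adjusted p = 0.491) at 90 d. The difference of these effects was -0.45 ± 0.17 (SE, adjusted p = 0.492). Adding the Gapdh difference to the fit turned the 21 d value to -0.07 (adjusted p = 0.950), and without the 5 arrays over 0.9 the 90 d value was -0.35 and passed (adjusted p = 0.0338). More probe sets passed at 90 d without those 5 arrays than with all 23. The other 2 probe sets of Pklr gave 0.05 and -0.06 at 21 d and -0.16 and -0.10 at 90 d.

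**Figure D2:**
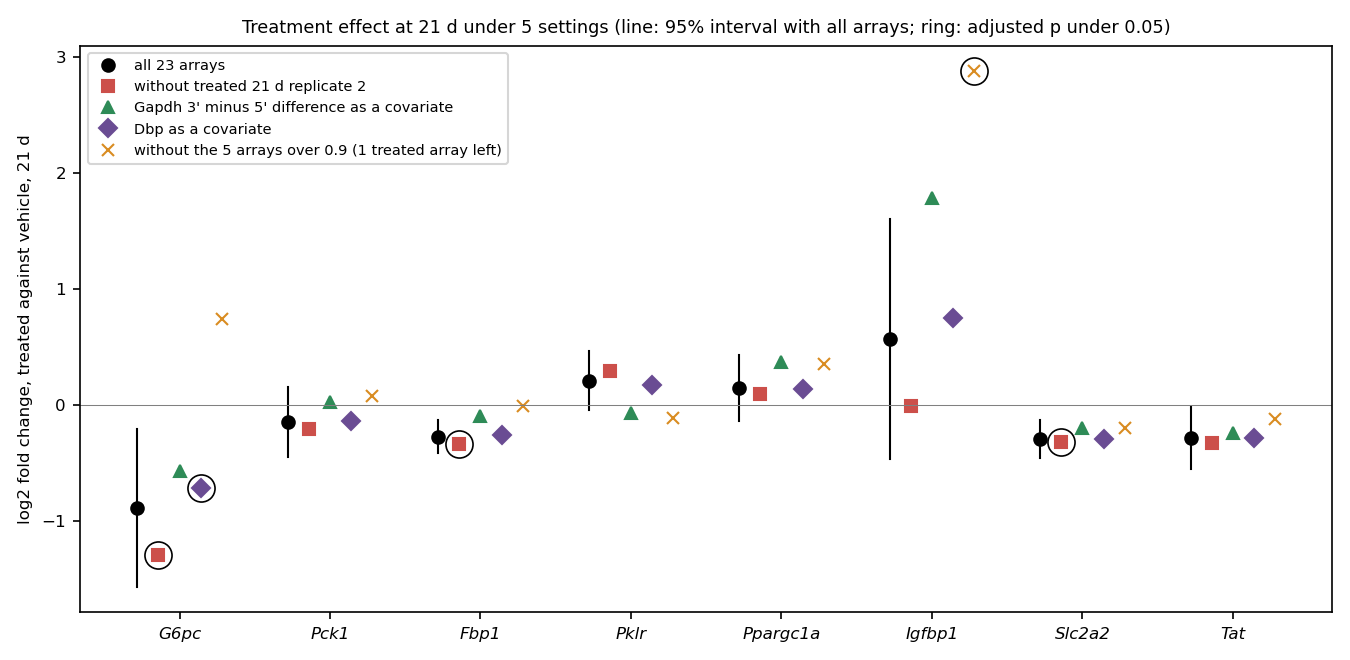
Log2 fold change, treated against vehicle at 21 d (vertical axis), of each gene (horizontal axis) in 5 fits: all 23 arrays, without treated 21 d replicate 2, with the Gapdh difference or Dbp as a covariate, and without the 5 arrays over 0.9. Lines are 95% intervals of the first fit and rings mark adjusted p under 0.05; G6pc, Fbp1 and Slc2a2 pass without replicate 2, where 5.03% of all probe sets do.

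Variation between livers of the same group was then compared between genes, using each liver's deviation from its group mean (23 livers, 28 pairs of the 8 genes). Pearson's r was above 0 in 19 pairs and ran from -0.75 to 0.67. After Benjamini-Hochberg adjustment over the 28 pairs, 2 passed. Pklr and Igfbp1 ran opposite to each other (r = -0.75, permutation p = 6e-05, adjusted p = 0.00168; Spearman's rho = -0.79, permutation p = 1e-05, the smallest that 100000 permutations can give, adjusted p = 0.00028). Livers with much Igfbp1, the insulin-repressed gene, had little Pklr.

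The Pklr and Igfbp1 relation had r = -0.73 without the 2 livers farthest from the median of Pklr, -0.84 within the 11 treated livers and -0.50 within the 12 vehicle livers, where it did not pass (adjusted p = 0.340). It was -0.71 without treated 21 d replicate 2 and -0.58 with the Gapdh difference regressed out (adjusted p = 0.0487).

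Pck1 and Tat rose and fell together (r = 0.67, permutation p = 0.00053, adjusted p = 0.00742; rho = 0.65, permutation p = 0.00117, adjusted p = 0.0164). Without the 2 livers farthest from the median of Pck1 r was 0.61, within treated livers 0.76 and within vehicle livers 0.51 (adjusted p = 0.340). The Gapdh difference made little change, with r = 0.68 after it was regressed out. G6pc, which acts in the same pathway as Pck1, had r = 0.09 with it (adjusted p = 0.759).

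**Figure D3:**
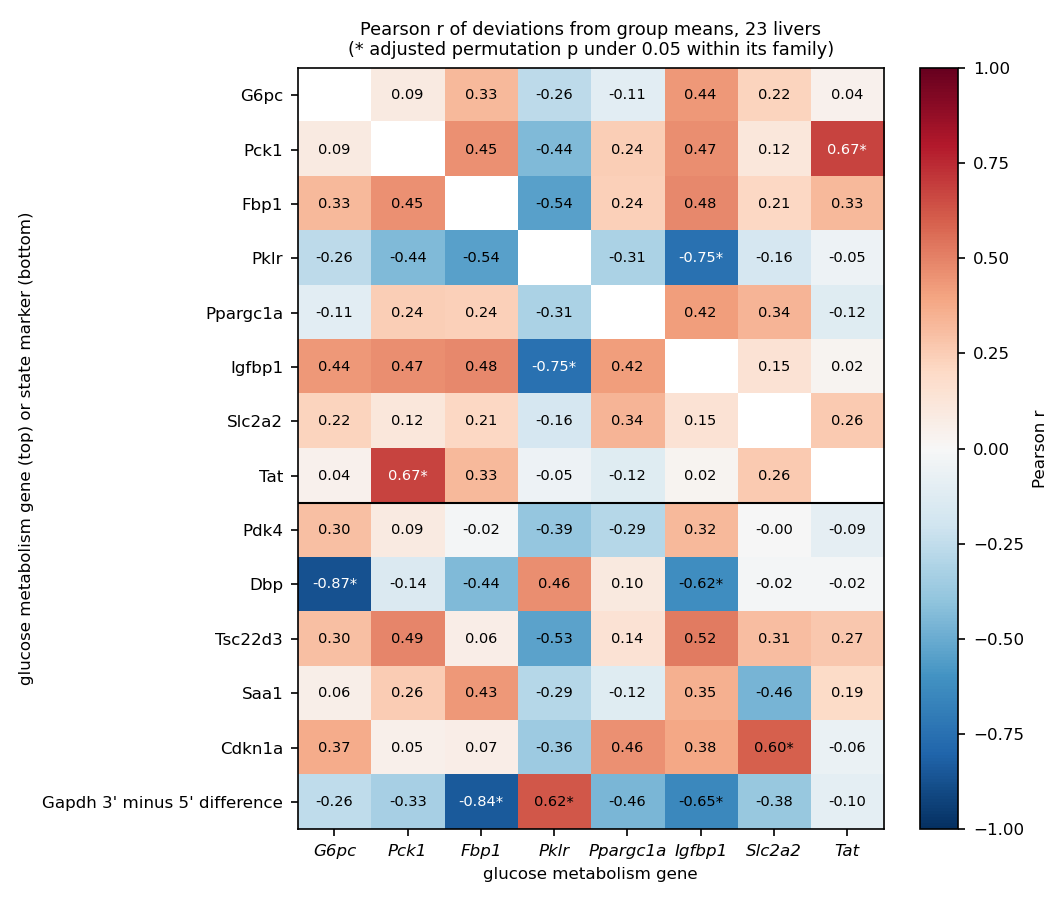
Pearson's r (colour and number) between the 8 genes (columns) and, above the line, the same genes or, below it, 6 measures of animal or RNA state (rows), over deviations of 23 livers from their group means. Stars mark adjusted permutation p under 0.05 within each family; the values run from -0.87 (G6pc with Dbp) to 0.67 (Pck1 with Tat).

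The deviations were then set against 5 genes that report on the state of an animal and against the Gapdh difference, 48 relations in all. The genes were Pdk4 (raised by fasting), Dbp (time of day), Tsc22d3 (glucocorticoid), Saa1 (acute phase) and Cdkn1a (p53). By Pearson's r 6 relations passed after adjustment over the 48, and by Spearman's rho 2 did. Those that passed by both were G6pc with Dbp and Fbp1 with the Gapdh difference.

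G6pc was low in livers with much Dbp. Over 23 livers r was -0.87 (permutation p = 1e-05, adjusted p = 0.00024) and rho was -0.75 (permutation p = 8e-05, adjusted p = 0.00288). Without the 2 livers farthest from the median of Dbp r was -0.73, and without treated 21 d replicate 2 it was also -0.73. The relation passed within the 12 vehicle livers (r = -0.78, adjusted p = 0.0319) and within the 11 treated livers (r = -0.90, adjusted p = 0.0181), and r was -0.87 with the Gapdh difference regressed out.

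Dbp signals ran from 9.70 to 12.68 in vehicle 21 d livers, from 10.69 to 12.01 in vehicle 90 d livers and from 11.26 to 12.87 in treated 90 d livers. The vehicle 21 d liver with the highest Dbp (12.68, replicate 4) had the lowest G6pc of its group, 11.05. With Dbp as a covariate, a fit chosen after the relation was seen, the treatment effect on G6pc at 21 d was -0.72 ± 0.17 (SE, limma adjusted p = 0.0465) and passed, and at 90 d it was -0.36 ± 0.16 (SE, adjusted p = 0.404). Of the other 7 genes 0 passed in that fit, and Igfbp1 had 0.75 at 21 d and 0.53 at 90 d. Over all 45037 probe sets, 406 passed there at 21 d and 334 at 90 d.

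Fbp1 was low in livers with a large Gapdh difference (r = -0.84, permutation p = 1e-05, adjusted p = 0.00024; rho = -0.73, permutation p = 0.00012, adjusted p = 0.00288). Without the 2 livers farthest from the median r was -0.71. Within treated livers it was -0.89 (adjusted p = 0.012) and within vehicle livers, which span a narrower range, -0.55 (adjusted p = 0.376). The part of RNA shortening in the lower Fbp1 of treated 21 d livers cannot be told apart from treatment there, since 4 of 5 treated livers and 0 of 6 vehicle livers were over 0.9. G6pc followed the Gapdh difference upward within vehicle livers (r = 0.87, rho = 0.84, permutation p = 0.00016, adjusted p = 0.00768) but had r = -0.52 within treated livers.

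The remaining 4 relations that passed by Pearson's r did not hold throughout. Igfbp1 with the Gapdh difference (r = -0.65) fell to -0.33 without the 2 farthest livers, Pklr with it (0.62) to 0.27, and Igfbp1 with Dbp (-0.62) to -0.22, so these rest on those livers. Slc2a2 with Cdkn1a (r = 0.60, rho = 0.47) was 0.77 within treated and -0.28 within vehicle livers. Over all 23 livers no relation with Pdk4, Saa1 or Tsc22d3 passed, and the largest of these by size was Pklr with Tsc22d3 (r = -0.53, adjusted p = 0.0590). Some passed in other settings. With the Gapdh difference regressed out, Tsc22d3 had r = -0.64 with Pklr and 0.64 with Igfbp1, and Saa1 had -0.64 with Slc2a2 (permutation test, adjusted p = 0.0113 each, all passing by rho too). Without treated 21 d replicate 2 r was -0.64 for Slc2a2 with Saa1 (adjusted p = 0.0235) and 0.62 for Igfbp1 with Tsc22d3 (adjusted p = 0.0248). Slc2a2 with Saa1 had r = -0.62 (adjusted p = 0.0411) without the 2 farthest livers. Within vehicle livers Ppargc1a with Pdk4 passed by rho (-0.81, adjusted p = 0.0366).

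**Figure D4:**
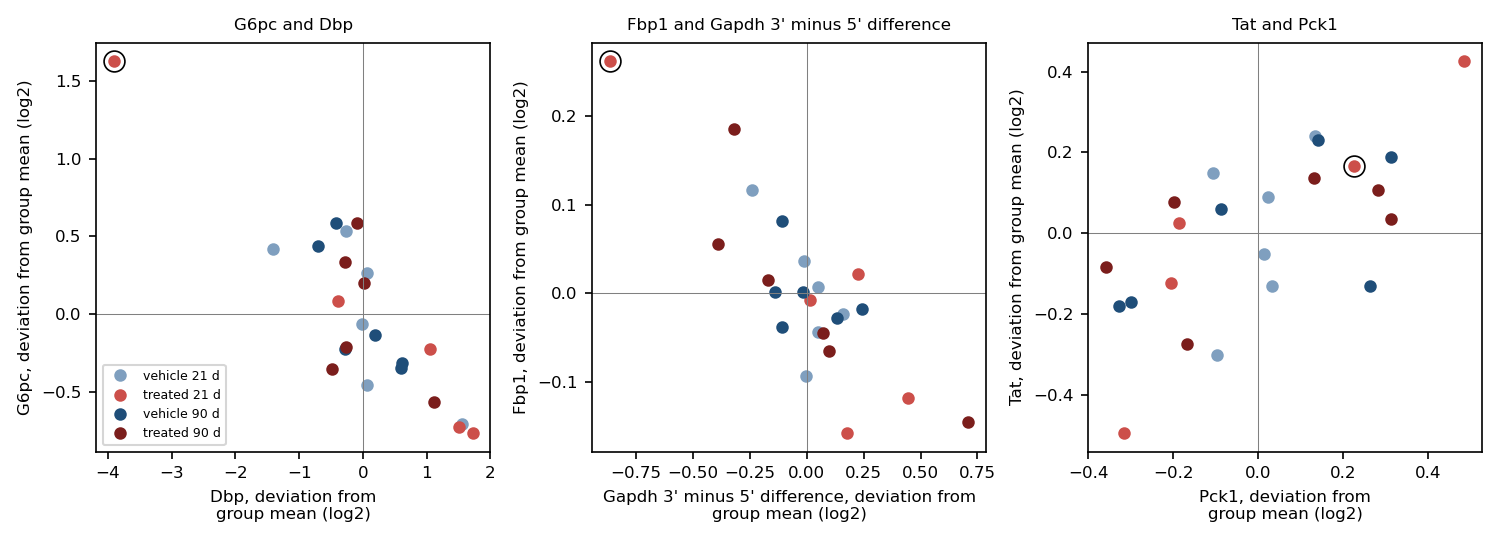
Deviations from the group mean (log2) of G6pc against Dbp, Fbp1 against the Gapdh 3' minus 5' difference and Tat against Pck1, 1 point per liver, coloured by group, with treated 21 d replicate 2 ringed. Pearson's r is -0.87, -0.84 and 0.67.

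The genes whose deviations were most like each of the 8 were sought among 10836 genes with a mean signal of at least 6, over the 23 livers and as a description. For G6pc they were Clic4 (r = 0.83), Cnbp (0.81) and Lonrf3 (0.80), and for Pck1 B4galt3 (0.79), Glud1 (0.77) and Tbc1d10b (0.73). Fbp1 had Stx12 (0.92), Dctn5 (0.91) and Slc35f5 (0.91), which themselves had r from -0.88 to -0.81 with the Gapdh difference. Slc2a2 had Sulf2 (0.91), Phlda3 (0.82) and Gsta4 (0.81), and Tat had Sf3b1 (0.80), Cables2 (0.78) and Fam133b (0.78). Igfbp1 had Cklf (0.86), Ctsz (0.83) and Tgif1 (0.83), Ppargc1a had Mtmr7 (0.86), Tut4 (0.83) and Nudt14 (0.82), and Pklr had Fam122a (0.88), 2310022B05Rik (0.86) and Scyl3 (0.86).

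The rest of the pathway was read from 8 lists, chosen by function and with earlier results of these data known. They held 136 different genes with a probe set of their own. At 21 d 0 of the 136 passed (limma), where 1.17% of all genes did. At 90 d 1 of 136 passed (0.735%), close to the 0.748% of all genes that did. At an unadjusted p under 0.05 there were 36 of 136 at 21 d and 19 at 90 d, against 16.6% and 12.1% of all genes, which are the shares to set beside the counts for each list. The 1 passing gene was Gyg, glycogenin, the protein primer on which glycogen is built. Its signal was 6.77, 7.08 and 7.27 in vehicle and 7.20, 7.82 and 8.61 in treated 90 d livers (lowest, median, highest), so the groups overlapped slightly. Gyg rose by 0.85 ± 0.19 (log2, SE, adjusted p = 0.0408), and its other probe set had 0.68 (adjusted p = 0.0901). The call ended in 14 of the 23 fits that left out 1 array (highest adjusted p 0.119) and with only the 90 d groups fitted (adjusted p = 0.0584).

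Of 26 measured enzymes of glycolysis and glucose production, 0 passed at either time (4 and 5 at an unadjusted p under 0.05). Their median log2 fold change was 0.01 at 21 d and 0.09 at 90 d, beside -0.02 and 0.02 over all genes. At 21 d the members with the largest change by size were Got1, cytosolic aspartate aminotransferase (-0.62, limma adjusted p = 0.246), and Pfkp, a phosphofructokinase (-0.31, adjusted p = 0.444), and both turned positive once the Gapdh difference was in the fit. At 90 d they were Aldoc, an aldolase (0.35, adjusted p = 0.141), in which all treated livers were above all vehicle livers (1.01% of probe sets separated in either direction), and Pkm, the pyruvate kinase of other tissues (0.35, adjusted p = 0.600).

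Of 14 measured regulators of glycolytic flux 0 passed at either time (5 and 1 at an unadjusted p under 0.05), with medians of 0.21 and 0.00. Mlxipl, the glucose-sensing factor ChREBP, had 0.61 (limma adjusted p = 0.261) and Pdp2, a pyruvate dehydrogenase phosphatase, 0.52 (adjusted p = 0.109) at 21 d. The kinases of that enzyme Pdk1 and Pdk3 had -0.30 and 0.21 at 90 d. Of 18 measured genes of glycogen metabolism 0 passed at 21 d and at 90 d Gyg did. At 21 d Ppp1r3c, a glycogen-targeting subunit of protein phosphatase 1, had -0.66 (adjusted p = 0.0936) by its brightest probe set. Its other probe set had -1.15 at 21 d and passed (adjusted p = 0.0417), where 0.957% of all probe sets did. Ugp2, which makes UDP-glucose, had -0.26 (adjusted p = 0.236) at 21 d.

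Of 23 measured genes of glucagon, cAMP and transcriptional control 0 passed (10 and 1 at an unadjusted p under 0.05 at 21 d and 90 d). The largest changes were Foxo3 at 0.34 and Sirt1 at -0.30 at 21 d, and Cebpb at 0.43 and Sik1 at -0.34 at 90 d. Of 19 genes of insulin and IGF signalling 0 passed (4 and 2 at an unadjusted p under 0.05). Irs2, an insulin receptor substrate, had 0.57 (limma adjusted p = 0.139) and Sgk1 -0.38 at 21 d, and Igfbp2 and Trib3 had 0.34 and 0.32 at 90 d.

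Lists that report on feeding and hormones also held no passing gene. Among 12 measured fed-state genes (4 and 2 at an unadjusted p under 0.05) the median was 0.19 at 21 d and -0.12 at 90 d. Thrsp, a lipogenic gene, had 0.81 (limma adjusted p = 0.386) and Elovl6, a fatty acid elongase, 0.70 (adjusted p = 0.155) at 21 d, and Egr1 and Lpin2 had 0.58 and 0.55 at 90 d. Among 14 fasted-state genes (2 and 2) the median was -0.01 at 21 d and 0.05 at 90 d, with Irs2 and Cyp4a14 (-0.50) changing most by size at 21 d and Cyp4a14 (-0.87) and Acot1 (-0.70) at 90 d. Cyp4a14 ran from -1.02 (without treated 21 d replicate 5) to -0.13 (without replicate 2) at 21 d. Without treated 90 d replicate 6 Cyp4a14 had -0.41 and Acot1 -0.45 at 90 d, and without replicate 4 Cyp4a14 had -1.43.

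Among 12 glucocorticoid-responsive genes (3 and 3 at an unadjusted p under 0.05) the median was -0.13 at 21 d and 0.09 at 90 d. The metallothioneins Mt1 and Mt2 had -0.81 and -0.75 at 21 d, with SDs of 1.59 and 2.17 in treated livers (n = 5). Without treated 21 d replicate 2 they had -1.50 and -1.72, and without replicate 3 -0.54 and -0.41. Zbtb16 had 1.08 (limma adjusted p = 0.344) and Ddit4, an inhibitor of mTOR signalling, 0.61 (adjusted p = 0.0866) at 90 d. For Ddit4 all treated livers were above all vehicle livers (1.01% of probe sets separated in either direction). Without treated 21 d replicate 2, 11 of the 136 list genes passed at 21 d, where 5.47% of all genes did, and 2 at 90 d (Gyg and Ddit4), where 1.29% did. Of the genes named above, these were Got1 (-0.98, limma adjusted p = 0.00697), Pdp2 (0.71, 0.00714), Foxo3 (0.48, 0.0104) and Elovl6 (0.89, 0.0326) at 21 d, and Ddit4 had an adjusted p of 0.00403 at 90 d. With all 23 arrays, Ppp1r3c passed at 21 d on the mean of its probe sets (-0.90, limma adjusted p = 0.0405), where 240 of 18193 genes did.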

How the data were processed

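Liver RNA of 23 animals was measured on Affymetrix GeneChip arrays of the mouse genome, with an array for each animal, per the labels. The authors' deposited table holds log2 values, made with Partek and RMA (which corrects background, equalises arrays and summarises probes) per the submitters' processing notes. No versions are given there. That the base is log2 was inferred from the values, which run from 2.23 to 15.41. Without raw scans, signals could not be set against background, and RMA hides any shift shared by all genes.

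Of 45101 probe sets, 64 controls were left out. The annotation gave 34945 probe sets 1 gene, 932 several and 9160 none. Group means were fitted with limma 3.58.1 in R 4.3.3 over all 23 arrays, with Benjamini-Hochberg adjustment over 45037 probe sets and a threshold of 0.05. Single genes were also compared with 2-sided exact permutation tests. Correlations of deviations from group means used 100000 permutations (numpy 2.4.6, Python 3.11.15). The fit was tested on simulated data. The number of arrays limits the precision, and p-values measure the spread between animals. Alternatives left out each array, added a replicate block, the Gapdh difference or Dbp, changed the scaling, the filter or the probe set rule, or fitted only the groups compared. The labels name no batch.

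The 8 genes, the lists, the motifs and the tests were chosen with earlier results of these data known. All 8 genes were named. From each list, up to 4 passing genes with the largest change per time were named, or the 2 largest where none passed. For each of the 8, the 3 genes with the highest r were named, and Pdk4, Dbp, Tsc22d3, Saa1 and Cdkn1a served as markers of state. Promoters came from RefSeq (GRCm38.p6).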

Additional observations from a re-analysis of the deposited data

Results flagged for a closer look

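In the vehicle 90 d group the Fbp1 signal of replicate 4 was 14.43, with the other 5 livers between 14.31 and 14.35, so that this liver lay far from the others by Dixon's criterion. It was 1 of 32 combinations of gene and group looked at, and chance alone gives about 1 in 20. Its Gapdh 3' minus 5' difference was 0.39, within the range of its group.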

How the results depend on the processing

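Alternatives changed 1 choice at a time. Replicate numbers did not pair the samples: same-numbered treated and vehicle arrays had correlations of deviations from -0.36 to -0.14 over 11 pairs, 0 of them over 0.1. With the replicate block the probe sets passing were 91 at 21 d, 148 at 90 d and 0 between vehicle groups, the Gyg call ended (adjusted p = 0.0652) and 0 of the 8 genes passed. The number of the 8 genes passing at 21 d was 0 with all arrays and the choices of the report, beside 431 of 45037 probe sets. It was 2 with a mean of at least 6 required (Fbp1 and Slc2a2), beside 813 probe sets out of fewer tested. On gene means it was 1 (Fbp1, beside 240 of 18193 genes). With trended, robust variances it was 1 (Fbp1, beside 448 probe sets), and with Dbp as a covariate 1 (G6pc, beside 406). Without the 5 arrays over 0.9, where replicate 2 is the only treated 21 d liver, Igfbp1 had 2.88. At 90 d 1 of the 8 genes passed without those 5 arrays (Pklr, beside 761 probe sets). Leaving out 1 array gave 0 to 3 of the 8 genes at 21 d, 0 at 90 d, 0 for the difference of effects and between vehicle groups, and 0 to 1 between treated groups. The 3 (G6pc, Fbp1 and Slc2a2) and the 1 (Fbp1, 0.24, limma adjusted p = 0.0376) came without treated 21 d replicate 2, beside 5.03% and 3.65% of all probe sets. There were 2 (Fbp1 and Slc2a2) without treated 90 d replicate 1, 3 or 6.

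The number of probe sets passing at 21 d was 123 with the Gapdh difference as a covariate, 813 with a mean of at least 6, 240 genes on gene means and 207 with only the groups compared. At 90 d it was 504 with the covariate, 761 without the 5 arrays and 149 with only those groups. Without the 5 arrays it was 6 for the difference of effects. Between vehicle groups it was 18 without the 5 arrays, 6 with a mean of at least 6, 14 on gene means, 8 after median centring, 6 after quantile normalization, 20 with only those groups and 7 with trended, robust variances. Between treated groups it was 12 with the covariate, 77 without the 5 arrays, 2 with only those groups and 90 with Dbp. Leaving out 1 array moved these counts to between 133 and 2265 at 21 d, 114 and 389 at 90 d, 0 and 53 for the difference, 0 and 16 between vehicle and 10 and 1644 between treated groups, the highest each time without treated 21 d replicate 2, except 389 without treated 90 d replicate 6.

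Directions at 21 d turned with the Gapdh covariate for Pck1 (0.025), Pklr (-0.068), Got1 (0.12), Pfkp (0.12), Mt1 (0.016) and Mt2 (0.80). Without the 5 arrays they turned for G6pc (0.74), Pck1 (0.073), Pklr (-0.12), Got1 (0.81), Pfkp (0.46), Mlxipl (-0.22), Pdp2 (-0.22), Foxo3 (-0.21), Sgk1 (0.17), Mt1 (2.00), Mt2 (3.10), Thrsp (-1.06) and Elovl6 (-0.085), where 1 treated liver is left. Without single arrays Igfbp1 had -0.011 (without treated 21 d replicate 2) to 0.88. The Fbp1 difference between vehicle groups, near 0, turned to 0.040 with the covariate, 0.0033 after centring, 0.0024 after quantile normalization, 0.0052 with Dbp and lay between -0.024 and 0.018 without single arrays. The cause of these changes was not tested.

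Passing relations among the 8 genes numbered 0 within vehicle and 4 within treated livers. With state measures they numbered 3 without the 2 farthest livers, 2 within vehicle livers and 4 without treated 21 d replicate 2. Within vehicle livers Slc2a2 with Cdkn1a (-0.28) and Igfbp1 with Dbp (0.088) changed sign.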

Other observations

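G6pc also followed other genes of the circadian clock. This list of 13 genes besides Dbp was chosen after the relation with Dbp had been seen, and r is given over the deviations of the same 23 livers as a description, since clock genes move together and are not independent of Dbp. G6pc had r below 0 with 8 of them, Tef (-0.77), Nr1d2 (-0.77), Nr1d1 (-0.74), Per3 (-0.73), Ciart (-0.67), Per2 (-0.60), Hlf (-0.59) and Per1 (-0.14). It had r above 0 with 5, Arntl (0.77), Cry1 (0.59), Nfil3 (0.57), Clock (0.43) and Npas2 (0.32). The size of r was over 0.5 for 10 of the 13 with G6pc, 6 with Igfbp1, 2 with Pklr, 1 with Fbp1 and 0 with Pck1, Ppargc1a, Slc2a2 and Tat. Without treated 21 d replicate 2 the counts were 7 with G6pc, 5 with Ppargc1a, 2 each with Pck1 and Tat, 1 each with Igfbp1 and Slc2a2, and 0 with Fbp1 and Pklr, so the order of the genes after G6pc rests on that liver. Values of r for G6pc were then -0.55 with Tef, -0.50 with Nr1d1, 0.57 with Arntl and 0.60 with Cry1, but -0.21 with Per2 (from -0.60), -0.25 with Hlf (from -0.59) and 0.35 with Nfil3 (from 0.57). Ppargc1a had 0.84 with Nr1d2 there.

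The G6pc promoter window holds TTACGTAA, a site of the PAR bZIP family to which Dbp belongs, starting 162 bases before the gene start. The forkhead match printed above starts 174 bases before it. This motif, searched for after the relation with Dbp had been seen, occurs in 0.119% of the 32851 windows, and with its variant TTATGTAA in 1.06%. It was found in 1 of the 9 windows of the 8 genes. Whether Dbp or another factor binds there in these livers was not tested.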
